A study of Mus musculus with 9 samples.

Results

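The receptors of the TNF receptor superfamily that serve B cells and plasma cells were examined in splenic B-lineage cells of immunized mice. The set was chosen by gene name and held 9 of the 29995 genes in the table from which the immunoglobulin (Ig) genes had been left out: the receptors for BAFF and APRIL, Tnfrsf13b (TACI), Tnfrsf13c (BAFF receptor) and Tnfrsf17 (BCMA), and the further receptors Cd40, Fas, Cd27, Tnfrsf1b (TNFR2), Tnfrsf18 (GITR) and Ltbr (lymphotoxin beta receptor). Of these, 8 were among the 12892 genes abundant enough to be tested, and Ltbr was not.

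BAFF and APRIL are cytokines of the TNF family that keep B-lineage cells alive. The BAFF receptor binds BAFF and is known for supporting resting mature B cells, TACI binds both cytokines and is known for roles in responses to T cell-independent antigens, and BCMA binds APRIL with high affinity and is known for supporting plasma cells in bone marrow. The cytoplasmic tails of these receptors and of CD40 recruit TRAF adaptor proteins that control NF-kB signaling, whereas the tail of Fas carries a death domain that assembles a caspase-activating complex.

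All mice carried the genotype B6.Blimp1GFP/+, in which 1 Prdm1 allele drives green fluorescent protein (GFP), were 12 weeks old, and had received 50 µg of NP-LPS (the hapten nitrophenyl linked to bacterial lipopolysaccharide) in the peritoneum 4 days earlier. No group came from an unimmunized mouse, and a cell lacking the reporter allele was not sampled. Splenocytes were sorted into 3 groups of 3 libraries: naive B cells (B220-positive, high in IgD, not binding NP), NP-binding B cells, which the study calls NP-specific or activated (B220-positive, without IgD, GFP or CD138) and plasma cells (binding NP, without IgD, positive for GFP and CD138, with or without B220). Cells bearing CD4 or CD8a (T cells), an erythroid marker or a macrophage marker had been gated out of every group. The submitters described 3 mice as the biological replicates, so the p-values measure the spread between these mice. The values are TPM, transcript abundances that are corrected for transcript length and scaled to a fixed sum in each library.

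The table without Ig genes rested on 28490300 to 31719400 estimated reads per library in naive B cells, 34918400 to 38602300 in NP-binding B cells and 20189900 to 22137400 in plasma cells. The B cell markers Cd79a, Cd79b, Cd22, Pax5 and Ms4a1 summed to 7978 to 8326 TPM in naive B cells, 5866 to 6457 TPM in NP-binding B cells and 1458 to 1528 TPM in plasma cells, and each was lowest in plasma cells. Between the B cell groups, Ms4a1 was higher in every NP-binding library and the other 4 were lower, with mean Cd79a at 3546 and 2271 TPM and mean Pax5 at 81.9 and 50.4 TPM. The plasma cell markers Prdm1, Sdc1, Xbp1, Irf4 and Slpi summed to 142.7 to 166.9, 184.3 to 198.6 and 5430 to 6620 TPM, and each was highest in plasma cells. Mean Sdc1 and Irf4 were lower in NP-binding B cells (0.943 and 11.1 TPM) than in naive B cells (7.02 and 25.1 TPM). Mean Prdm1, Xbp1 and Slpi were higher in NP-binding B cells (4.76, 156.0 and 17.1 TPM) than in naive B cells (2.50, 118.9 and 0.560 TPM). Plasma cell library 3 stood apart, since the summed level of the liver markers Alb, Apoa1 and Ttr was 1808 TPM there against 0.102 to 1.12 TPM in the other 8 libraries, and its 6 macrophage and monocyte markers summed to 63.7 TPM against 7.46 to 24.6 TPM. Its 4 granulocyte markers summed to 33.5 TPM, against 6.32 and 5.97 TPM in plasma cell libraries 1 and 2. The log2 differences and the receptor shares were therefore also computed without that library, and log2 differences that moved by over 1.5-fold are given where they arise. NP-binding B cell library 2 held the same granulocyte markers at a summed 50.0 TPM, against 1.75 and 0.495 TPM in libraries 1 and 3 of its group. All NP-binding B cell libraries held more Itgam (12.3 to 16.0 TPM) and Flt3 (15.8 to 19.4 TPM) than naive B cells (2.09 to 2.73 and 1.76 to 2.38 TPM). The macrophage and monocyte genes Csf1r, Emr1, Lyz2, Cd14 and C1qa reached at most 1.54, 3.68, 5.51, 1.11 and 0.0393 TPM there. In naive B cells they reached at most 0.601, 4.23, 1.73, 0.972 and 0.372 TPM. The dendritic cell genes Zbtb46 and Siglech reached at most 3.04 and 1.73 TPM in NP-binding B cells and 3.11 and 1.88 TPM in naive B cells. The part of other cell types in the values of NP-binding B cells was not tested. In bulk RNA, fewer cells that express a gene and less of its RNA per cell cannot be told apart.

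In NP-binding B cells, 2 of the 8 tested receptors rose relative to naive B cells (Tnfrsf17 and Fas) and 0 fell, with a call defined as an adjusted p below 0.05 and more than a 2-fold difference in limma-voom. Over all tested genes, 18.5% were called in this comparison, 8.13% higher and 10.4% lower. In plasma cells relative to naive B cells, 1 receptor rose (Tnfrsf17) and 5 fell (Tnfrsf13c, Cd40, Fas, Tnfrsf1b and Tnfrsf18), where 37.8% of all tested genes were called, 11.4% higher and 26.3% lower. In plasma cells relative to NP-binding B cells, 1 rose (Tnfrsf17) and 4 fell (Tnfrsf13c, Cd40, Fas and Tnfrsf18), where 32.2% of all tested genes were called, 9.93% higher and 22.3% lower. The libraries of the groups compared did not overlap for 6, 8 and 7 of the 8 receptors in these comparisons, beside 55.9%, 69.7% and 58.2% of all tested genes. The median log2 difference of the 8 receptors was -0.10, -1.50 and -1.19 in these 3 comparisons, beside -0.16, -0.47 and -0.30 for all tested genes. The comparisons share libraries, so they are not independent of each other.

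The split of calls over all genes depended on how libraries were scaled. TPM gave 1048 genes higher and 1340 lower in NP-binding B cells than in naive B cells, 1473 higher and 3397 lower in plasma cells than in naive B cells, and 1280 higher and 2870 lower in plasma cells than in NP-binding B cells. Median-of-ratios scaling gave 1258 and 1022, 2349 and 1814, and 2023 and 1788, and it moved the median of all genes by 0.11, 0.49 and 0.38 on the log2 scale. Quantile normalization gave 1157 and 976, 2063 and 2047, and 1795 and 1843. The directions of the called receptors were kept under both scalings, although the fall of Fas from naive B cells to plasma cells was less than 2-fold under each.

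**Figure D1:**
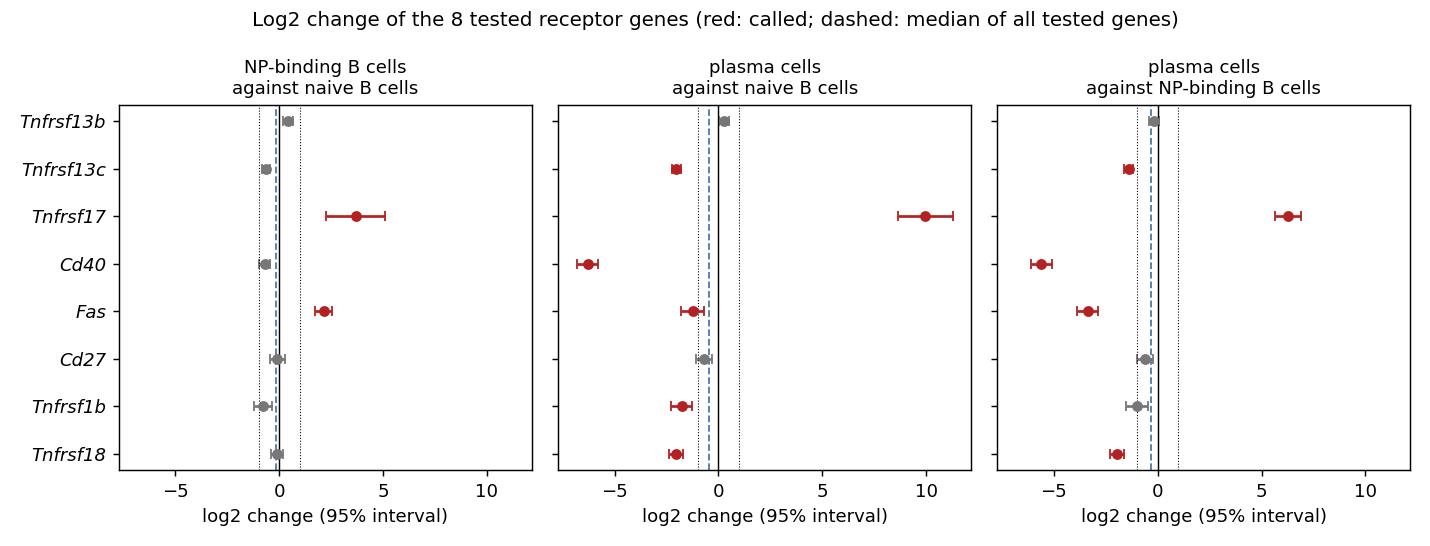
Log2 change with its 95% confidence interval (horizontal axis) for the 8 tested receptors (vertical axis) in the 3 comparisons, red where the receptor was called, with a dashed line at the median of all tested genes and dotted lines at 2-fold. Tnfrsf17 lies to the right of 0 in each comparison, and Cd40 lies furthest to the left in both plasma cell comparisons.

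Tnfrsf17, which encodes BCMA, was nearly undetected in naive B cells, low in NP-binding B cells and the most abundant of the 9 receptors in plasma cells. It is encoded at chr16:11313812-11320074 on the plus strand (GRCm38, GENCODE M21). Its level was 0.195, 0.0620 and 0.512 TPM in naive B cell libraries 1, 2 and 3, which rest on 3.00, 1.00 and 7.09 estimated reads. NP-binding B cells held 7.32, 18.6 and 5.21 TPM, and plasma cells held 732, 802 and 672 TPM. The 3 groups did not overlap, and NP-binding B cell library 2 was the highest of its group. The plasma cell marker Slpi stood at 16.7, 25.3 and 9.36 TPM in NP-binding B cell libraries 1, 2 and 3, against at most 1.03 TPM in naive B cells. Mean Sdc1 and Irf4 were lower in NP-binding than in naive B cells. The part of plasma cell transcripts in the Tnfrsf17 level of NP-binding B cells was not tested. The rise was 3.68 ± 0.64 (SE) on the log2 scale from naive to NP-binding B cells (adjusted p = 0.00118), 6.28 ± 0.29 from NP-binding B cells to plasma cells (adjusted p = 2.51e-08) and 9.96 ± 0.59 from naive B cells to plasma cells (adjusted p = 1.40e-07). Because an offset of 0.5 is added before the logarithm, these values understate the change from a level near 0. Over all settings that were run, the rises ranged from 3.18 to 5.34, 5.06 to 6.78 and 8.67 to 11.8, in the same order. The authors' log2 values had means of -3.14 in naive B cells, 2.19 in NP-binding B cells and 8.61 in plasma cells. As a ratio of summed estimated reads per library size, plasma cells exceeded naive B cells by 3239-fold (24927 against 11 reads), with a 95% interval of 1810 to 6489 that covers counting error only. The same ratio was 43.5 (24.1 to 87.7) for NP-binding B cells against naive B cells, where 342 of 576 reads came from NP-binding B cell library 2, the one with granulocyte markers, and it was 25.9 (14.2 to 52.6) without that library. Leaving out naive B cell library 3, which held 7.09 of the naive reads, moved the ratios to 82.1 (31.9 to 302.2) for NP-binding B cells and 6109 (2386 to 22424) for plasma cells. These repeats were chosen after seeing the data.

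**Figure D2:**
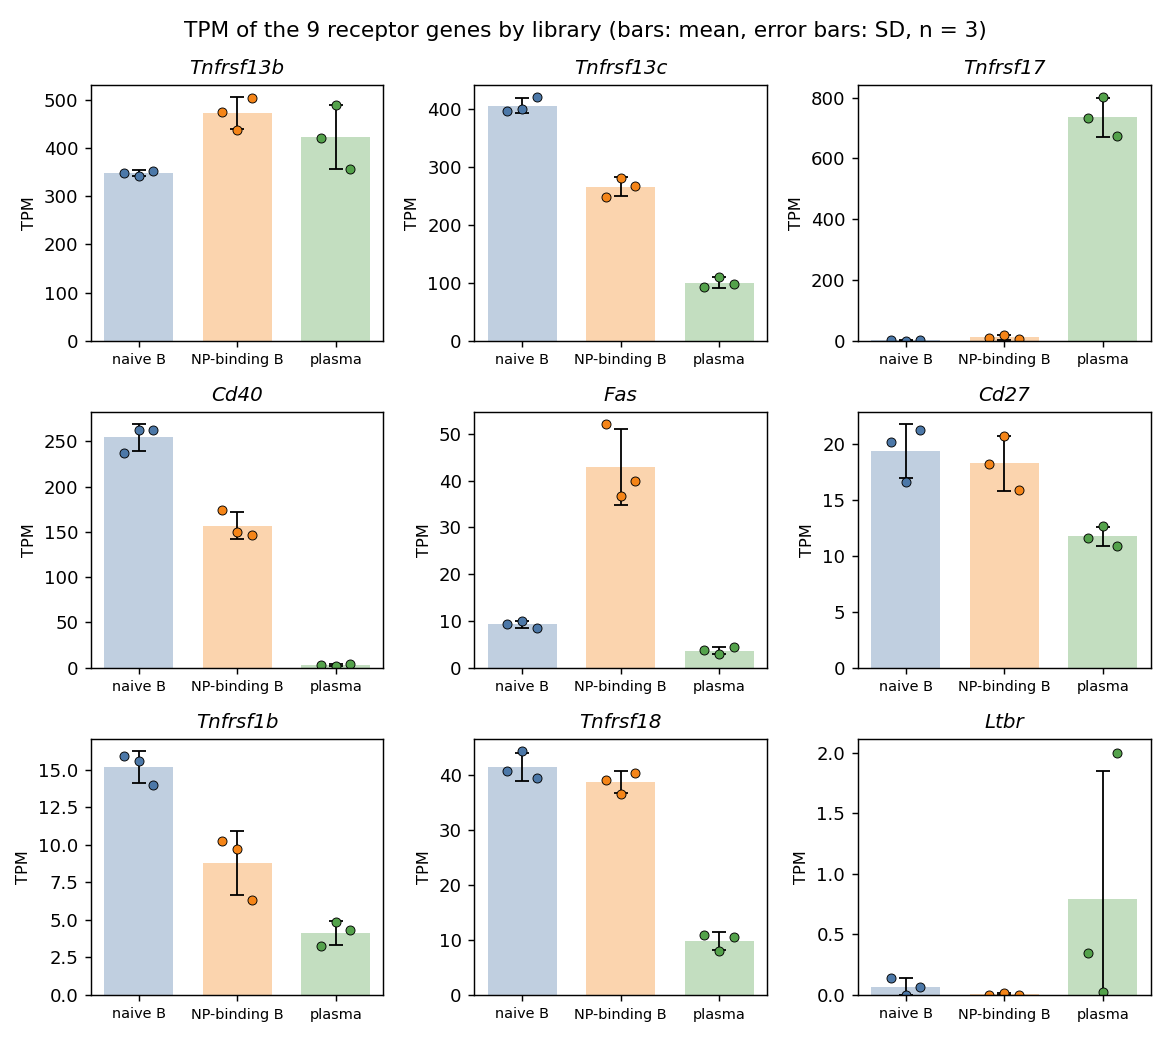
TPM (vertical axis, linear from 0, with its own range for each receptor) of every library (points), with the group mean (bars) and SD (error bars), for the 9 receptors in 3 libraries each of naive B cells, NP-binding B cells and plasma cells. Tnfrsf17 climbs from under 1 TPM in naive B cells to 672 TPM or more in plasma cells, while Cd40 drops from 237.6 TPM or more to at most 4.14 TPM.

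Since the receptors for BAFF and APRIL followed different courses, the 250 bases before the RefSeq start of each (GRCm38.p6), and of Fas, the other receptor called higher in NP-binding B cells, are shown for comparison. Each of these 4 windows lay outside the gene models of GENCODE M21, and 8 of the 9 receptors had an entry in the RefSeq promoter table used here. Both strands were searched for GAAA followed by any 2 bases and GAAA again (a form of the interferon-stimulated response element, which IRF proteins bind), CAGGTG (an E box), ACGTG (the core of elements bound by UPR and hypoxia factors) and GGG followed by any 2 bases and TTTCC (a form of the kappa B element). Capitals mark a match, and each line is written 5′ to 3′ on the gene's own strand.
Tnfrsf17, chr16:11313559-11313808, plus strand: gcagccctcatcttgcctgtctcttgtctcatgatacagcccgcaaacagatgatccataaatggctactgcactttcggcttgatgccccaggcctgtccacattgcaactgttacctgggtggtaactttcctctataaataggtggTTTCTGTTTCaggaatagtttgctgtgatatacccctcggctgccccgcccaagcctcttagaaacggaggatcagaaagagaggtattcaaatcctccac
Tnfrsf13c, chr15:82224381-82224630, minus strand: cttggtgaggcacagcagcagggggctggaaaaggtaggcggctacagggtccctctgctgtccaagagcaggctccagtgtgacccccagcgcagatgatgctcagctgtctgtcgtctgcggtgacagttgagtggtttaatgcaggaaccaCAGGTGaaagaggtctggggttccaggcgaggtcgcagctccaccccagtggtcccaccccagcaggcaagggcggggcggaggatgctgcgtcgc
Tnfrsf13b, chr11:61126505-61126754, plus strand: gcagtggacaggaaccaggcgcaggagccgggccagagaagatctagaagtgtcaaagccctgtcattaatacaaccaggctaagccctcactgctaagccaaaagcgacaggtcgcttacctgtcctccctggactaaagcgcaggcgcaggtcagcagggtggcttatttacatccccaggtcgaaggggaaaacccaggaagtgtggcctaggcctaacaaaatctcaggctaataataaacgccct
Fas, chr19:34290409-34290658, plus strand: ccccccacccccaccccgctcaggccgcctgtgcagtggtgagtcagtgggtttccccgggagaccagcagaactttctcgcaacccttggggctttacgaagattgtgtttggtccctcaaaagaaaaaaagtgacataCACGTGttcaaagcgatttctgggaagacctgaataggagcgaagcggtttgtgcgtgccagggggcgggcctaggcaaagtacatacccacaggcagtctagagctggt

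The Tnfrsf17 window held a match to the interferon-stimulated element on the opposite strand, 101 to 92 bases before the start, and 2.98% of the 32851 mouse promoter windows of this length held this motif. The Tnfrsf13c window held CAGGTG 96 to 91 bases before the start, as did 17.2% of the windows at any position. The Fas window held ACGTG on both strands, overlapping in a palindrome 110 to 105 bases before the start, where 16.6% of the windows held this core. None of the 4 motifs was found in the Tnfrsf13b window, and the kappa B form, present in 1.41% of the windows, was found in none of the 8 receptor windows. Among the receptor windows that are not shown, Tnfrsf1b held the interferon-stimulated element 10 to 1 bases and CAGGTG 132 to 127 bases before the start, Tnfrsf18 held CAGGTG in a window that runs into its GENCODE gene model, and Ltbr held ACGTG, while no match was found for Cd27. These are matches of letters within 250 bases, and they do not show whether a factor binds there.

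Tnfrsf13b, which encodes TACI, stayed abundant in all 3 groups. The gene lies at chr11:61126755-61149372 on the plus strand. Its level was 349.3, 341.7 and 353.6 TPM in naive B cells, 475.6, 439.4 and 505.9 TPM in NP-binding B cells, and 422.5, 491.0 and 357.6 TPM in plasma cells. Both antigen-binding groups lay above naive B cells in every library, and they overlapped each other. The log2 difference from naive B cells was 0.43 ± 0.11 (SE) in NP-binding B cells (95% confidence interval 0.18 to 0.68, adjusted p = 0.0111), which is below the 2-fold limit, and 0.26 ± 0.11 in plasma cells (0.01 to 0.52, adjusted p = 0.0649). Between plasma cells and NP-binding B cells the difference was -0.17 ± 0.11 (-0.42 to 0.08, adjusted p = 0.235). The small differences that involve plasma cells turned with the scaling: plasma cells differed from naive B cells by -0.08 after quantile normalization, and from NP-binding B cells by 0.22 after median-of-ratios scaling. Under the latter, plasma cells differed from naive B cells by 0.76 (adjusted p = 0.000271), still below the 2-fold limit.

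Tnfrsf13c, which encodes the BAFF receptor, was the most abundant of the 9 in naive B cells and was lowest in plasma cells. The locus is chr15:82221743-82224369 on the minus strand. Its level was 395.9, 400.4 and 420.1 TPM in naive B cells, 247.8, 280.4 and 267.3 TPM in NP-binding B cells, and 93.1, 110.3 and 96.7 TPM in plasma cells. The 3 groups did not overlap. Tnfrsf13c fell by 2.02 ± 0.09 (SE) on the log2 scale from naive B cells to plasma cells (adjusted p = 2.05e-08) and fell by 1.40 ± 0.10 from NP-binding B cells to plasma cells (adjusted p = 5.36e-07). The difference between NP-binding and naive B cells was -0.62 ± 0.09 (95% confidence interval -0.81 to -0.43, adjusted p = 0.000306), which is smaller than 2-fold.

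Expressed as shares of the summed TPM of the receptors for BAFF and APRIL, the makeup of this trio differed between the groups. BCMA transcripts made up 0.0335% ± 0.0296 (SD, n = 3) of the sum in naive B cells, 1.40% ± 0.98 in NP-binding B cells and 58.5% ± 1.27 in plasma cells. BAFF receptor transcripts made up 53.8% ± 0.59, 35.4% ± 2.24 and 7.97% ± 0.57, in the same order. The BCMA share in NP-binding B cells was 1.00%, 2.51% and 0.670% in libraries 1, 2 and 3, and its difference from naive B cells was 1.36 percentage points with all libraries and 0.802 without NP-binding B cell library 2. TACI transcripts made up 46.2% ± 0.61, 63.2% ± 3.19 and 33.5% ± 1.65. Neither the BCMA share nor the BAFF receptor share overlapped between any pair of groups, and each of their 6 differences had a two-sided exact permutation p of 0.1, the smallest that 3 against 3 libraries allow. From naive B cells to plasma cells the BCMA share differed by 58.5 percentage points and the BAFF receptor share by -45.8 percentage points. The sum itself was 753.9 ± 17.7 TPM in naive B cells, 749.2 ± 25.7 TPM in NP-binding B cells and 1259 ± 139 TPM in plasma cells. These shares do not depend on which other genes are in the table, since the scale of a library cancels, but they do depend on the correction for transcript length, and BCMA made up 32.5% ± 1.14 of the estimated reads of the trio in plasma cells. TACI made up 45.8% ± 0.60, 63.4% ± 2.83 and 54.3% ± 2.00 of these reads in the 3 groups. In plasma cells TACI thus had the largest share of reads, whereas BCMA had the largest share of TPM.

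**Figure D3:**
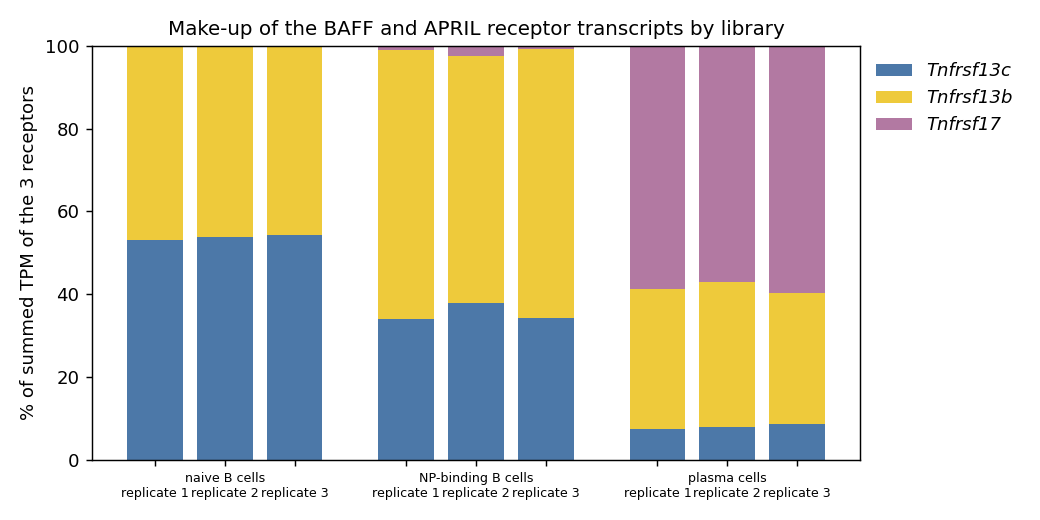
Percent of the summed TPM of Tnfrsf13b, Tnfrsf13c and Tnfrsf17 taken by each of them in every library (stacked bars, 3 libraries per group). Tnfrsf17 takes 57.2 to 59.7% in plasma cells and at most 2.51% elsewhere, and Tnfrsf13c takes 53.1 to 54.3% in naive B cells.

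Cd40, whose product receives help from T cells through CD40 ligand, was the receptor with the largest decrease. Its position is chr2:165055627-165072948 on the plus strand. It was measured at 237.6, 263.0 and 262.6 TPM in naive B cells, 173.8, 150.1 and 146.3 TPM in NP-binding B cells, and 2.73, 1.76 and 4.14 TPM in plasma cells. No library of any group overlapped with another group. Cd40 fell by 6.30 ± 0.24 (SE) on the log2 scale from naive B cells to plasma cells (adjusted p = 4.41e-09) and fell by 5.59 ± 0.24 from NP-binding B cells to plasma cells (adjusted p = 1.37e-08), with mean TPM 88.3-fold and 54.4-fold lower. The difference between NP-binding and naive B cells was -0.71 ± 0.11 (95% confidence interval -0.96 to -0.46, adjusted p = 0.000720), below the 2-fold limit, although it was past that limit at -1.03 after quantile normalization.

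Fas, a death receptor that rises on activated B cells, was higher in NP-binding B cells than in either other group. The gene lies at chr19:34290666-34327772 on the plus strand. Its level was 9.41, 9.89 and 8.44 TPM in naive B cells, 52.1, 36.7 and 39.9 TPM in NP-binding B cells, and 3.69, 2.95 and 4.38 TPM in plasma cells. The groups did not overlap, with plasma cells below naive B cells. Fas rose by 2.13 ± 0.19 (SE) on the log2 scale from naive to NP-binding B cells (adjusted p = 1.35e-05) and fell by 3.37 ± 0.22 from NP-binding B cells to plasma cells (adjusted p = 4.09e-07). From naive B cells to plasma cells Fas fell by 1.24 ± 0.25 (adjusted p = 0.00144). That fall depended on the scaling, at -0.74 after median-of-ratios scaling and -0.69 after quantile normalization, both under 2-fold.

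Tnfrsf18, which encodes GITR, a receptor known mainly from regulatory T cells, had overlapping levels in both B cell groups and was lower in plasma cells. It maps to chr4:156026164-156028895 on the plus strand. It stood at 40.8, 44.4 and 39.5 TPM in naive B cells, 39.1, 36.6 and 40.5 TPM in NP-binding B cells, and 10.9, 7.99 and 10.6 TPM in plasma cells. The B cell groups overlapped and plasma cells lay below both. Tnfrsf18 fell by 2.04 ± 0.15 (SE) on the log2 scale from naive B cells to plasma cells (adjusted p = 8.33e-07) and fell by 1.94 ± 0.15 from NP-binding B cells (adjusted p = 1.64e-06), while NP-binding and naive B cells differed by -0.11 ± 0.12 (95% confidence interval -0.38 to 0.16, adjusted p = 0.50). The 3 regulatory T cell markers Foxp3, Il2ra and Ctla4 summed to 2.85 to 3.70 TPM in naive B cells, 1.66 to 2.45 TPM in NP-binding B cells and 11.5 to 15.7 TPM in plasma cells, where Ctla4 alone gave 10.8 to 14.9 TPM and Foxp3 at most 0.217 TPM. The 7 T cell markers summed to 56.1 to 64.1 TPM in naive B cells, 24.3 to 58.4 TPM in NP-binding B cells and 4.53 to 7.20 TPM in plasma cells, most of it from Lck at 20.4 to 56.7 TPM in the B cell groups, while Cd3e was at most 1.15 TPM in any library and Trac was listed at 0 in all 9. The part of T cell transcripts in the Tnfrsf18 and Cd27 levels was not tested. Tnfrsf18 shares 414 exonic bases with Gm16008 on the opposite strand, and because the cDNA method does not keep the strand, reads of the pair cannot be told apart there.

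Cd27, a receptor for CD70 that marks memory B cells and plasma cells in humans, differed by less than 2-fold in every comparison of the table without Ig genes. Its locus is chr6:125232622-125237010 on the minus strand. Its level was 20.1, 16.6 and 21.2 TPM in naive B cells, 18.2, 20.7 and 15.8 TPM in NP-binding B cells, and 11.6, 12.6 and 10.9 TPM in plasma cells. The B cell groups overlapped, and all plasma cell libraries lay below them. The log2 difference was -0.09 ± 0.16 (SE) between NP-binding and naive B cells (95% confidence interval -0.44 to 0.26, adjusted p = 0.675), -0.70 ± 0.17 between plasma cells and naive B cells (-1.07 to -0.33, adjusted p = 0.00417), and -0.61 ± 0.17 between plasma cells and NP-binding B cells (-0.99 to -0.24, adjusted p = 0.0103). Both plasma cell differences depended on the scaling, at -0.21 and -0.23 under median-of-ratios scaling (adjusted p = 0.319 and 0.272) and at -0.16 in each under quantile normalization (adjusted p = 0.404 and 0.421), whereas with Ig genes in the table they were -1.79 and -1.69 and were called. Cd27 is also a T cell gene, and the T cell marker values given for Tnfrsf18 apply to it.

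Tnfrsf1b, which encodes TNFR2, a receptor for TNF and lymphotoxin alpha, was at its highest in naive B cells and at its lowest in plasma cells. It maps to chr4:145213463-145246870 on the minus strand. It was measured at 15.9, 15.6 and 13.9 TPM in naive B cells, 10.3, 9.74 and 6.34 TPM in NP-binding B cells, and 3.28, 4.86 and 4.31 TPM in plasma cells. The groups did not overlap, and library 3 was the lowest among NP-binding B cells. Tnfrsf1b fell by 1.77 ± 0.23 (SE) on the log2 scale from naive B cells to plasma cells (adjusted p = 5.62e-05). The difference was -0.79 ± 0.20 between NP-binding and naive B cells (95% confidence interval -1.23 to -0.35, adjusted p = 0.00963) and -0.98 ± 0.24 between plasma cells and NP-binding B cells (-1.51 to -0.45, adjusted p = 0.00531). This last value lay just inside the 2-fold limit and depended on the setting. It was -0.60 under median-of-ratios scaling (adjusted p = 0.0628) and -0.54 under quantile normalization (adjusted p = 0.0782), whereas it passed the limit with Ig genes in the table (-1.86), and without NP-binding B cell library 3 (-1.19), plasma cell library 2 (-1.09) or plasma cell library 3 (-1.01). It was also called with log2(TPM + 0.1) values without weights.

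Ltbr, a receptor for lymphotoxin that is known from stromal and myeloid cells and not from lymphocytes, was supported by at most 12.7 estimated reads in 8 of the 9 libraries. The gene lies at chr6:125306571-125313885 on the minus strand. The naive B cell libraries held 7.0, 0 and 3.04 estimated reads, the NP-binding B cell libraries 0, 1.00 and 0, and the plasma cell libraries 12.7, 0.979 and 73.0, the last corresponding to 2.00 TPM. The only library above 1 TPM was thus plasma cell library 3, the one with liver and macrophage transcripts, and the part of those transcripts in the Ltbr level was not tested. A count of 0 allows up to 0.0565 TPM in naive B cell library 2, taken as 3 reads. Ltbr did not reach 1 TPM in 3 libraries and was therefore left out of the main test. Without a filter on low values it was not called in any comparison, with adjusted p = 0.530, 0.142 and 0.0723 in limma-voom for NP-binding against naive B cells, plasma cells against naive B cells and plasma cells against NP-binding B cells.

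Ranked by mean TPM, the order of the receptors differed between the groups. The order in naive B cells was Tnfrsf13c, Tnfrsf13b, Cd40, Tnfrsf18, Cd27, Tnfrsf1b, Fas, Tnfrsf17 and Ltbr, and only the last pair overlapped in their library values. NP-binding B cells ranked Tnfrsf13b first, then Tnfrsf13c, Cd40, Fas, Tnfrsf18, Cd27, Tnfrsf17, Tnfrsf1b and Ltbr, where Fas overlapped with Tnfrsf18 and Tnfrsf17 overlapped with both of its neighbours. Plasma cells ranked Tnfrsf17 first, then Tnfrsf13b, Tnfrsf13c, Cd27, Tnfrsf18, Tnfrsf1b, Fas, Cd40 and Ltbr, and each receptor from Tnfrsf1b downward overlapped with the next. Cd40 thus came directly after Tnfrsf13b and Tnfrsf13c in both B cell groups and had a mean below that of Fas in plasma cells.

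Leaving the Ig genes in the table changed the scale of plasma cells, since Ig transcripts took a large part of their RNA. With Ig genes included, Tnfrsf13b stood at 326.0 ± 5.93 TPM (SD, n = 3) in naive B cells, 423.9 ± 31.7 TPM in NP-binding B cells and 123.3 ± 14.8 TPM in plasma cells. On that scale plasma cells differed from naive B cells by -0.95 on the log2 scale (adjusted p = 8.53e-06), the opposite sign to the value without Ig genes, and Tnfrsf13b fell by 1.37 from NP-binding B cells to plasma cells (adjusted p = 7.80e-07). Tnfrsf17 still rose, from 0.240 ± 0.216 to 9.28 ± 6.44 and 214.4 ± 11.1 TPM. The sum of the receptors for BAFF and APRIL was 705.7 ± 16.8, 670.5 ± 29.6 and 366.8 ± 26.4 TPM with Ig genes included, so that it was lowest in plasma cells where it had been highest without them. The median of all genes moved by -0.93 on the log2 scale between plasma cells and naive B cells when Ig genes were included, and relative to the median of all genes Tnfrsf13b differed in plasma cells by 0.45 on this scale, by 0.74 without Ig genes and by -0.0011 after quantile normalization.

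Among the 10 ligands of these receptors, only the lymphotoxins and TNF were abundant enough to be tested, and all 3 fell in plasma cells. Of all tested genes, 26.3% were called lower in plasma cells against naive B cells and 22.3% against NP-binding B cells. Ltb, which encodes the membrane anchor of the lymphotoxin heterotrimer, was measured at 1427, 1331 and 1296 TPM in naive B cells, 1078, 885 and 967 TPM in NP-binding B cells, and 3.48, 2.50 and 5.92 TPM in plasma cells. It fell by 8.32 ± 0.24 (SE) on the log2 scale from naive B cells to plasma cells (adjusted p = 7.37e-10) and fell by 7.84 ± 0.24 from NP-binding B cells (adjusted p = 1.55e-09). Lta, which encodes lymphotoxin alpha, fell by 6.06 ± 0.39 and fell by 5.96 ± 0.39 in the same comparisons (adjusted p = 2.42e-07 and 3.51e-07), from 57.2 to 70.0 TPM in the B cell libraries to 0.0850 to 1.77 TPM. Without plasma cell library 3, which held the 1.77 TPM, these values were -6.68 and -6.58. NP-binding and naive B cells differed by -0.48 ± 0.11 for Ltb (adjusted p = 0.00448) and -0.10 ± 0.16 for Lta (adjusted p = 0.620), neither past the 2-fold limit. Tnf fell by 1.06 ± 0.24 from naive to NP-binding B cells (adjusted p = 0.00576) and fell by 4.44 ± 0.40 from naive B cells to plasma cells (adjusted p = 3.38e-06), where it was listed at 0, 0 and 0.373 TPM. The call of Tnf in NP-binding B cells was lost under median-of-ratios scaling (-0.95), under quantile normalization (-0.93), and without NP-binding B cell library 1 (-0.84) or naive B cell library 2 (-0.90). It was also lost with log2(TPM + 0.1) values without weights (adjusted p = 0.148) and with the authors' log2 values (adjusted p = 0.416). The genes for BAFF and APRIL themselves, Tnfsf13b and Tnfsf13, were below the filter on low values.

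Of 19 other receptors of the superfamily, 11 were tested, and their median log2 difference was -0.73 in NP-binding B cells against naive B cells, -1.13 in plasma cells against naive B cells and -0.36 in plasma cells against NP-binding B cells, beside -0.16, -0.47 and -0.30 for all tested genes. In NP-binding B cells, 0 rose and 3 fell, where 8.13% of all tested genes were called higher and 10.4% lower: Tnfrsf12a, the receptor for TWEAK, by a log2 difference of -2.68 ± 0.67 (SE, adjusted p = 0.00885), Tnfrsf10b, the receptor for TRAIL, by -1.09 ± 0.28 (adjusted p = 0.0101), and Ngfr, the low-affinity neurotrophin receptor, by -1.05 ± 0.30 (adjusted p = 0.0174). The Tnfrsf12a difference was -1.92 without NP-binding B cell library 3, where it was listed at 0. The calls of Tnfrsf10b and Ngfr were lost under median-of-ratios scaling (-0.99 and -0.94), under quantile normalization (-0.97 and -0.72, adjusted p = 0.0245 and 0.0793) and without naive B cell library 1 (-0.99 and -0.94, adjusted p = 0.0398 and 0.0675). That of Tnfrsf10b was also lost without NP-binding B cell library 3 (-0.998), and that of Ngfr without NP-binding B cell library 1 (-0.88, adjusted p = 0.0583) and with log2(TPM + 0.1) values without weights (adjusted p = 0.0665). Ngfr stood at 1.47 to 2.07 TPM in naive B cells, 0.352 to 0.889 TPM in NP-binding B cells and 0.111 to 0.129 TPM in plasma cells, and it passed the filter on low values only through naive B cells, where it is high. The filter thus favoured a fall of Ngfr from naive B cells. Ngfr is included in the counts, but no conclusion is drawn from its calls. In plasma cells against naive B cells 1 rose (Tnfrsf23) and 6 fell, beside 11.4% of all tested genes called higher and 26.3% lower. Relt led the falls at -2.94 ± 0.25 (adjusted p = 2.45e-06), followed by Tnfrsf21 at -1.85 ± 0.37 (adjusted p = 0.00136). Ngfr, whose fall the filter favoured, is counted among the 6 and was at -1.83 ± 0.32 (adjusted p = 0.000554). Under both median-of-ratios scaling and quantile normalization 1 rose and 3 fell, since Tnfrsf14, Tnfrsf22 and Tnfrsf26 were then less than 2-fold lower. These scalings called 18.2% and 16% of all tested genes higher and 14.1% and 15.9% lower. In plasma cells against NP-binding B cells 1 rose and 3 fell, beside 9.93% of all tested genes called higher and 22.3% lower, with Relt at -2.76 ± 0.25 (adjusted p = 5.45e-06), Tnfrsf21 at -2.19 ± 0.37 (adjusted p = 0.000425) and Tnfrsf23, a decoy receptor for TRAIL, at 1.90 ± 0.41 (adjusted p = 0.00236). Tnfrsf23 passed the filter only through plasma cells, where it is high, at 2.51 to 4.08 TPM against 0.0402 to 1.70 TPM in the B cell libraries. It was the 1 rise counted in each plasma cell comparison. The filter favoured that direction, so no conclusion is drawn from its calls. In plasma cells against NP-binding B cells 2 rose and 2 fell under median-of-ratios scaling, and 1 rose and 2 fell after quantile normalization. There these scalings called 15.7% and 13.9% of all tested genes higher and 13.9% and 14.3% lower. With Ig genes included, 10 of these receptors were tested, and 0 rose while 3, 9 and 5 fell in the 3 comparisons. In that setting 8.67%, 4.47% and 3.41% of all tested genes were called higher and 11.6%, 64.5% and 59.7% lower. Tnfrsf12a was uneven in plasma cells, at 2.43, 1.82 and 10.6 TPM, with the highest value in library 3.

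All 4 genes of the non-canonical NF-kB pathway, which the BAFF receptor and CD40 engage, were tested, and 3 of them fell in every comparison. Of all tested genes, 10.4%, 26.3% and 22.3% were called lower in the 3 comparisons. Map3k14 (the kinase NIK) was measured at 18.1 to 21.6 TPM in naive B cells, 6.70 to 10.2 TPM in NP-binding B cells and 1.89 to 2.13 TPM in plasma cells. Relb stood at 70.9 to 83.6, 31.9 to 35.3 and 8.20 to 10.2 TPM, and Nfkb2 (the precursor that this pathway processes) at 105.7 to 119.3, 38.7 to 65.2 and 12.7 to 14.8 TPM. None of these ranges overlapped, beside 55.9%, 69.7% and 58.2% of all tested genes without overlap in the 3 comparisons. In NP-binding B cells against naive B cells Map3k14 fell by 1.21 ± 0.17 (SE), Relb by 1.21 ± 0.12 and Nfkb2 by 1.09 ± 0.16 on the log2 scale (adjusted p = 0.000362, 2.57e-05 and 0.000443). In plasma cells against naive B cells they fell by 3.04 ± 0.23, 3.00 ± 0.15 and 2.98 ± 0.20 (adjusted p = 8.90e-07, 3.06e-08 and 4.23e-07). The list medians were -1.15, -2.99 and -1.81 in the 3 comparisons, beside -0.16, -0.47 and -0.30 for all tested genes. The call of Nfkb2 in NP-binding B cells was lost under median-of-ratios scaling (-0.98) and without NP-binding B cell library 3 (-0.87).

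The 13 adaptors and ubiquitin ligases were all tested, and 0 rose while 3, 9 and 6 fell in the 3 comparisons, with medians of -0.42, -1.25 and -0.85, beside -0.16, -0.47 and -0.30 for all tested genes, of which 10.4%, 26.3% and 22.3% were called lower. Under median-of-ratios scaling 1, 0 and 1 rose and 2, 6 and 3 fell, and after quantile normalization 0, 0 and 1 rose and 4, 6 and 3 fell. Median-of-ratios scaling called 9.76%, 18.2% and 15.7% of all tested genes higher and 7.93%, 14.1% and 13.9% lower. Quantile normalization called 8.97%, 16% and 13.9% higher and 7.57%, 15.9% and 14.3% lower. In plasma cells against naive B cells, Cyld, Tradd and Traf1 were less than 2-fold lower under both. With Ig genes included, 0 rose and 3, 13 and 12 fell, where 11.6%, 64.5% and 59.7% of all tested genes were called lower. Traf5, an adaptor of CD40 and CD27, stood at 188.5 to 213.7 TPM in naive B cells, 101.4 to 108.0 TPM in NP-binding B cells and 16.8 to 41.6 TPM in plasma cells, and fell by 2.77 ± 0.23 (SE) on the log2 scale from naive B cells to plasma cells (adjusted p = 2.18e-06). Birc3 (the ubiquitin ligase cIAP2) fell by 1.41 ± 0.11 in NP-binding B cells (adjusted p = 8.26e-06) and by 2.63 ± 0.13 in plasma cells (adjusted p = 2.59e-08), both against naive B cells. Traf3, which restrains NIK, fell by 1.14 ± 0.20 and fell by 1.74 ± 0.22 in the same comparisons (adjusted p = 0.00125 and 4.21e-05). Tnfaip3 (A20), an inhibitor of NF-kB signaling, fell by 1.10 ± 0.27 in NP-binding B cells (adjusted p = 0.00779). The calls of Traf3 and Tnfaip3 in NP-binding B cells were lost without NP-binding B cell library 3 (-0.94 and -0.72), and that of Tnfaip3 also under median-of-ratios scaling (-0.99). Traf1 was highest in NP-binding B cells, at 59.8 to 78.5 TPM against 33.2 to 38.4 TPM in naive B cells, and fell by 2.16 ± 0.15 from there to plasma cells (adjusted p = 6.15e-07). In that comparison Traf4 fell by 2.00 ± 0.30 (adjusted p = 0.000187) and Traf5 by 1.82 ± 0.24 (adjusted p = 8.42e-05).

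Of 4 genes of the death-inducing complex downstream of Fas, all tested, 1 rose in NP-binding B cells and 0 fell. In plasma cells 0 rose and 1 fell against naive B cells, and 1 rose and 1 fell against NP-binding B cells. Of all tested genes, 8.13%, 11.4% and 9.93% were called higher and 10.4%, 26.3% and 22.3% lower in the 3 comparisons. The list medians were -0.08, -0.51 and -0.43, beside -0.16, -0.47 and -0.30 for all tested genes. With Ig genes included, 1, 0 and 0 rose and 0, 3 and 3 fell. In that setting 8.67%, 4.47% and 3.41% of all tested genes were called higher and 11.6%, 64.5% and 59.7% lower. Bid, which links death receptors to mitochondria, followed a course like that of Fas. It stood at 59.2 to 67.6 TPM in naive B cells, 128.0 to 175.8 TPM in NP-binding B cells and 24.7 to 26.4 TPM in plasma cells. Bid rose by 1.24 ± 0.13 (SE) on the log2 scale in NP-binding B cells (adjusted p = 3.57e-05) and fell by 1.30 ± 0.15 in plasma cells (adjusted p = 2.98e-05), both against naive B cells, and fell by 2.54 ± 0.14 from NP-binding B cells to plasma cells (adjusted p = 1.31e-07). Cflar (c-FLIP), an inhibitor of death receptor signaling, stood at 81.4 to 83.8, 48.1 to 61.7 and 127.0 to 164.4 TPM, and rose by 1.39 ± 0.13 from NP-binding B cells to plasma cells (adjusted p = 5.29e-06). That rise was 0.19 and not called with Ig genes in the table, whereas against naive B cells Cflar was called higher under median-of-ratios scaling (1.28). The fall of Bid in plasma cells against naive B cells was smaller than 2-fold under median-of-ratios scaling (-0.80) and quantile normalization (-0.97).

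Receptors of this family are shed from the surface by ADAM proteases and gamma-secretase, the latter known to cleave BCMA. Of 9 genes on this list 8 were tested, and 0 rose in each comparison while 0, 1 and 1 fell. Of all tested genes, 8.13%, 11.4% and 9.93% were called higher and 10.4%, 26.3% and 22.3% lower. The list medians were -0.22, -0.32 and 0.08, beside -0.16, -0.47 and -0.30 for all tested genes. With Ig genes included, 0 rose and 0, 5 and 3 fell, where 11.6%, 64.5% and 59.7% of all tested genes were called lower. Aph1b was among those called lower in plasma cells than in naive B cells (-1.07). In the table without Ig genes it passed the filter on low values only through naive B cells. The filter favoured that direction, so no conclusion is drawn from the call of Aph1b. Without Ig genes, the gene that fell was Psen2, a catalytic subunit of gamma-secretase, by 1.31 ± 0.27 (SE) from naive B cells to plasma cells (adjusted p = 0.00143) and by 1.32 ± 0.26 from NP-binding B cells (adjusted p = 0.00152). Its plasma cell level was 14.6, 18.7 and 39.8 TPM, against 51.2 to 62.0 TPM in the B cell libraries, and both calls were lost under median-of-ratios scaling (-0.82 and -0.94) and quantile normalization (-0.97 and -0.87). Psenen, another subunit of gamma-secretase, was called higher in plasma cells than in NP-binding B cells under median-of-ratios scaling (1.03). Without plasma cell library 3 the differences of Psen2 were -1.72 and -1.73.

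**Figure D4:**
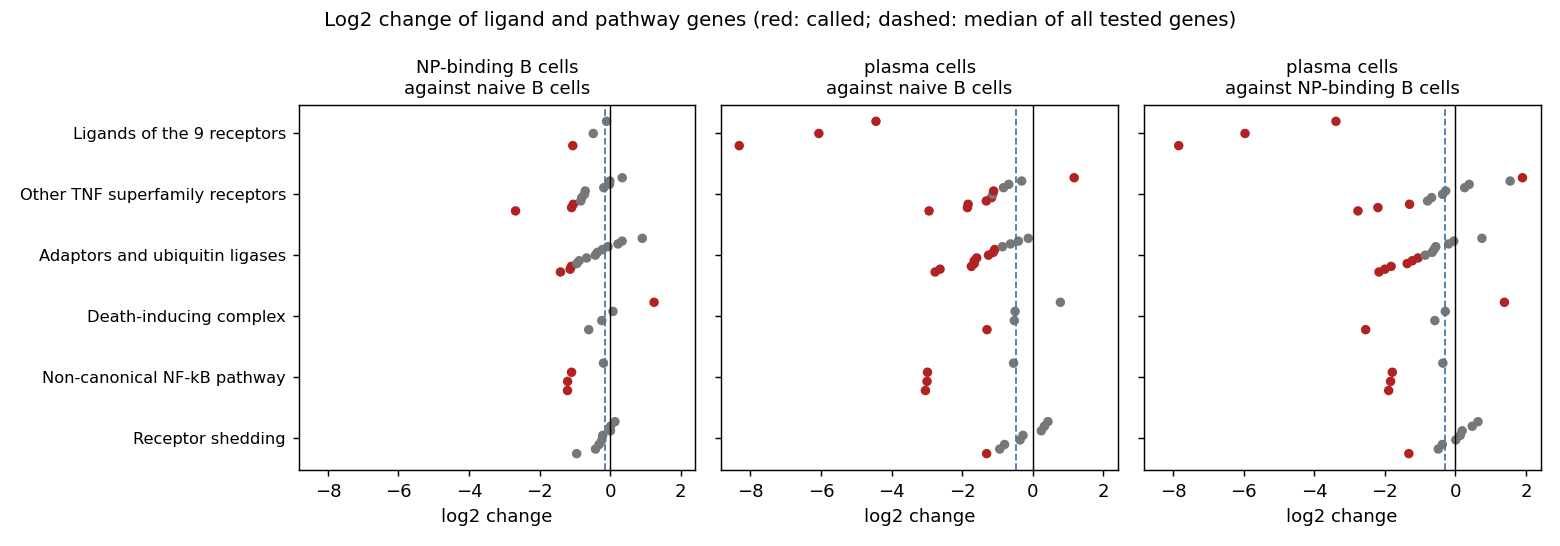
Log2 change (horizontal axis) of every tested gene (points) in the ligand, other receptor, adaptor, death complex, non-canonical NF-kB and shedding lists for the 3 comparisons in red where called, with a dashed line at the median of all tested genes. The 3 tested ligands lie furthest to the left in the plasma cell comparisons, with medians of -6.06 and -5.96, whereas the shedding list lies near the median of all genes.

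The genes whose levels followed those of the receptors for BAFF and APRIL most closely were found by Pearson's r of log2(TPM + 0.5) over the 9 libraries, among 12891 other tested genes. For Tnfrsf17 these were Mpc2 (r = 0.996), Alpl (0.994) and 9430069I07Rik (0.994), and 316 genes had an r above 0.95. Mpc2, a subunit of the mitochondrial pyruvate carrier, had a mean of 85.1 TPM in naive B cells, 155.6 TPM in NP-binding B cells and 516.2 TPM in plasma cells. For Tnfrsf13c the closest were Tbc1d5 (r = 0.999), Chst3 (0.997) and Gpr18 (0.997), among 944 genes above 0.95, and for Tnfrsf13b they were Tbc1d10b (r = 0.967), Rars (0.961) and Ascc1 (0.954), the only genes above 0.95. With 3 groups of 3 libraries, such an r mainly follows the order of the group means and is given as a description.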

How the data were processed

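RNA from 9 libraries was analysed, in 3 groups taken from the sample labels. The deposited TPM values were made by the authors, who pseudoaligned reads with kallisto and summed transcripts per gene symbol. The submitters' processing notes name mm10, and the transcript annotation is not given in the sources used here. The authors also deposited log2 values that voom gave for the same estimates, and these served to recover estimated reads from the value shared by genes at 0. The sequencer behind each library is not given in the sources used here, and batches could not be examined. TPM without Ig genes (29995 genes) were passed to limma-voom (limma 3.58.1, R 4.3.3), as the study's methods state. All libraries were in 1 fit without a replicate block. The deposited log2 values correspond to estimated reads rather than TPM, and estimated counts were also fitted as an alternative. Genes with at least 1 TPM in 3 libraries were tested, p-values were Benjamini-Hochberg adjusted over 12892 genes, and a call needed an adjusted p below 0.05 and a fold above 2. The procedure was tested on simulated data. Shares were compared by exact permutation (SciPy 1.17.1), and figures were drawn with matplotlib 3.10.9. The receptors and gene lists were chosen with earlier results of these data known. Some genes of these lists are not reported here. Named were all receptors, the tested ligands, and up to 3 genes with the largest difference among those called per other list and comparison. The 3 genes most like each receptor for BAFF and APRIL were also named. Intervals and the floor of 3 reads reflect counting alone, because PCR copies could not be recognised without molecular identifiers. Alternatives were other scalings, filters, offsets, the full table, the authors' log2 values, a replicate block and leaving out each library. Counts for the gene lists under other scalings were added after seeing the data, and the genes named for losing or gaining a call there were chosen after their values were seen.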

Additional observations from a re-analysis of the deposited data

How the results depend on the processing

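Of 453 values recomputed for the tested receptors under the alternatives, 436 kept their direction and their side of the threshold, 2 lost the call, 9 gained it and 6 turned sign. For the other named genes 758 of 786 values were kept, 27 lost the call and 1 turned sign. The sign turned for Cd27 in NP-binding against naive B cells (0.019 under median-of-ratios scaling and -0.19 to 0.0082 when 1 library was left out, positive without NP-binding B cell library 3), for Tnfrsf18 and Lta in that comparison (0.0043 and 0.0070 under median-of-ratios scaling), and for Tnfrsf13b in plasma cells against naive B cells (-0.076 under quantile normalization and -0.95 with Ig genes) and against NP-binding B cells (0.22 under median-of-ratios scaling). None of these turned values was called. The cause was not tested.

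Counts of called genes were 2388, 4870 and 4150 in NP-binding against naive B cells, plasma cells against naive B cells and plasma cells against NP-binding B cells. Restricting the test to genes with a mean of at least 10 TPM gave 1179, 2965 and 2640, with fewer genes tested. With Ig genes in the table, 8494 and 7775 of 12324 tested genes were called in the plasma cell comparisons. Of these 12324 genes, 4.47% and 3.41% were called higher and 64.5% and 59.7% lower. All 8 tested receptors were called in plasma cells against NP-binding B cells in that setting, 1 higher and 7 lower. Leaving out 1 library gave 2096 to 2633, 4659 to 4985 and 3968 to 4391 genes, and 2, 6 and 5 to 6 receptors. With the replicate number as a replicate block, 2453, 4898 and 4238 genes and 2, 6 and 5 receptors were called. Libraries that share a number did not deviate together (r of -0.07 to 0.07 across genes), so the numbers were not taken as pairing. Depth limited Tnfrsf17 in naive B cells and Ltbr in 8 libraries. Groups of 3 libraries were not tested for outlying values.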
